A study of Homo sapiens with 6 samples.

Results

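The genes that encode the subunits of the hypoxia-inducible factors (HIFs) and the enzymes that tie these factors to oxygen were examined in SW480 cells after knockdown of ZEB1. These are the alpha subunits HIF1A, EPAS1 and HIF3A, the beta subunits ARNT and ARNT2, the prolyl hydroxylases EGLN1, EGLN2 and EGLN3, the asparaginyl hydroxylase HIF1AN, and VHL. The rule is a list of gene names with no threshold on a measured value, drawn up with earlier results of these data known, and all 10 were present among the 32029 genes listed. Of these, 8 passed the filter on low counts, which 14996 genes passed in all. HIF3A and ARNT2 did not pass it and are given by their reads. SW480 is an established line from a colorectal cancer. The cells received control siRNA (siNC, 3 cultures, labelled WT) or siRNA against ZEB1 (siZEB1, 3 cultures, labelled ZEB1 knockdown). Total RNA was taken 48 h after transfection. Both groups were grown in DMEM with serum in 5% CO2, and neither the labels nor the methods name a low-oxygen step for these cultures. The siRNA sequences, and whether more than 1 was used against ZEB1, are not given in the sources used here, so the comparison stands for this siRNA treatment of this line. Reads were measured, not protein.

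HIFs are heterodimers in which an oxygen-regulated alpha subunit pairs with a constitutive beta subunit, and both belong to the bHLH-PAS family. In oxygenated cells the EGLN enzymes, which need oxygen, iron and 2-oxoglutarate, hydroxylate prolines of the alpha subunit, and VHL, the substrate receptor of a ubiquitin ligase, binds the hydroxylated form and sends it to the proteasome. HIF1AN, also called FIH, hydroxylates an asparagine of the alpha subunit and so keeps the coactivators EP300 and CREBBP from binding. The alpha subunits are therefore controlled largely as proteins, and EGLN3 and EGLN1 are themselves transcribed under HIF. ZEB1 is a zinc finger factor of the epithelial-mesenchymal transition that binds E-boxes of the sequence CACCTG.

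The 6 libraries held between 19040636 and 22357633 counts, and no library stood apart in depth or was a copy of another. ZEB1, the targeted gene, had 1247, 1276 and 908 reads in siNC and 136, 132 and 162 reads in siZEB1, which was 7.22-fold lower (log2 fold change -2.85, SE 0.11, edgeR adjusted p = 4.85e-12). Over all genes, 21.2% of those tested were called lower in siZEB1 and 19% higher, at an adjusted p under 0.05 by edgeR's quasi-likelihood test with Benjamini-Hochberg adjustment. The epithelial keratins KRT8 and KRT18 were at 3455 and 1418 CPM in siNC (CPM, reads of a gene for each 1000000 reads of the scaled library), while of the colonic markers CEACAM5 had 1 read in all and KRT20 stayed under 1 CPM. Of the 10 epithelial markers, 9 were listed and 7 tested, of which EPCAM, VIL1 and KRT19 rose and CDX2 fell, and their summed level was 4815 to 5437 CPM in siNC and 5329 to 6002 CPM in siZEB1. The 13 leukocyte, endothelial, fibroblast and erythroid markers summed to 11.8 to 13.7 CPM in siNC and 9.87 to 12.4 CPM in siZEB1. Most of each sum was COL1A1, which averaged 10.2 CPM in siNC and 8.70 CPM in siZEB1. PTPRC, CDH5, KDR and DCN were not listed. In bulk RNA a lower level in each cell and fewer cells that express a gene cannot be told apart.

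Short stretches of promoter are shown because they hold the letters that ZEB1 or HIF dimers are known to bind. RefSeq windows of 300 bases, from 250 before to 50 after a start (GRCh38.p14), were matched for 8 of the 10 genes, with 12 windows in all, and VHL and ARNT2 had no entry. The ZEB1 E-box was searched as CACCTG and the HIF core as ACGTG or GCGTG, each on both strands, so that a CACGTG counts on both. Each sequence is written 5′ to 3′ on the strand of the gene, with the match in capitals.
HIF1A, E-box, chr14:61695369-61695394, plus strand: gcctccacctCAGGTGaggcgggctt
HIF1A, HIF core, chr14:61695299-61695324, plus strand: gctgagagcgGCGTGggctggggtgg
EPAS1, HIF core, chr2:46297280-46297305, plus strand: gcctgccggcGCGTGcccgcccacac
EGLN1, HIF core, chr1:231422285-231422310, minus strand: gccgtggtgtACGTGcagagcgcgca
EGLN2, HIF core, chr19:40799133-40799158, plus strand: gggcgcggtcACGTGcccaccgggcg
The E-box, read here as its reverse complement CAGGTG, was in 1 of the 12 windows, centred at -131 from a start of HIF1A, and 20.59% of the 35116 RefSeq windows held it. The HIF core was in 5 of the 12 windows, 1 each of HIF1A, EPAS1, HIF3A, EGLN1 and EGLN2, and in none of ARNT, EGLN3 or HIF1AN, while 48.45% of all windows held it. The cores were centred at -202 from the RefSeq start in HIF1A, -115 in EPAS1, -11 in EGLN1 and -46 in EGLN2. Minus means before that start. The gene coordinates given below come from another annotation, GENCODE, whose gene ends can differ from these starts. By those coordinates the core of HIF1A lies before the gene, but those of EPAS1, EGLN1 and EGLN2 lie inside it. The windows of EGLN3 and HIF1AN also lie inside the gene. The EGLN3 window (33951025-33951324) is far from the upstream gene end at 34462774, which was not searched. These are matches of letters within short windows, and the files hold no binding data.

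Among the HIF genes, EPAS1, EGLN3, HIF1AN, EGLN1 and ARNT fell after ZEB1 knockdown, VHL rose, and HIF1A and EGLN2 did not pass the test. That is 5 of 8 tested genes lower, where 21.2% of all genes were lower, and 1 of 8 higher, where 19% of all genes were higher (40.2% in either direction). The median log2 fold change of the 8 was -0.50, beside -0.0055 over all 14996 genes. In 6 of the 8 every siZEB1 library was below every siNC library (25.3% of all genes tested), and in 1 every siZEB1 library was above (24.3%), where 49.5% of all genes had groups without overlap. With the rule that the methods give for differential genes (a fold above 1.5 with an unadjusted p under 0.001), EPAS1, EGLN3 and HIF1AN passed as lower and none as higher, where 6.7% and 4.52% of all genes did.

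**Figure D1:**
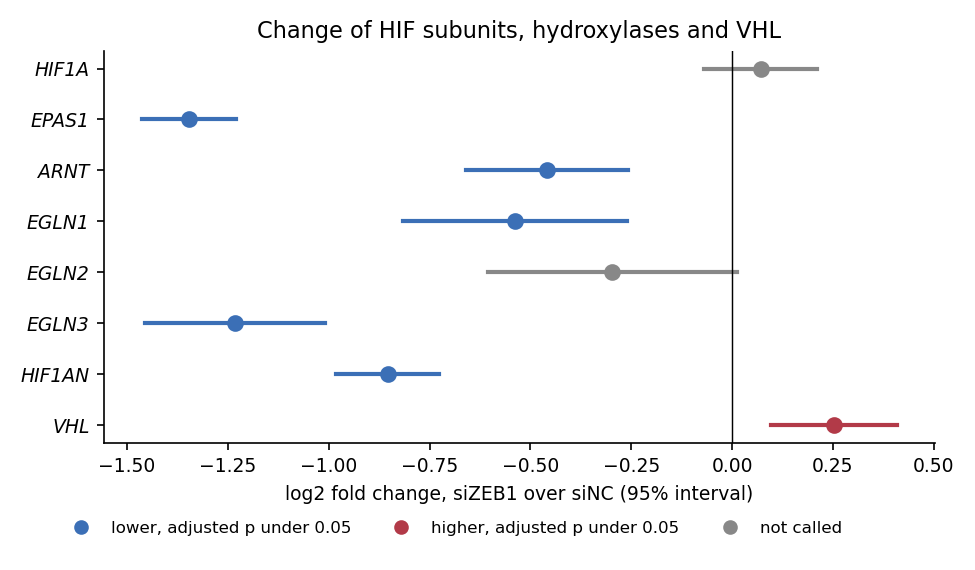
Log2 fold change of siZEB1 over siNC (x axis) for the 8 tested genes, with bars for the 95% interval of edgeR's fit over 3 libraries a group. EPAS1 and EGLN3 lie lowest at -1.35 and -1.23, VHL lies above 0, and the intervals of HIF1A and EGLN2 cross 0.

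EPAS1 encodes HIF-2alpha, the alpha subunit that is best known from endothelium, kidney and iron and erythropoietin control, and that is also found in many carcinomas. Its gene (ENSG00000116016) lies on chr2:46293667-46386703 of GRCh38, plus strand. It had 14268, 15026 and 11913 reads in siNC and 4919, 4798 and 4995 reads in siZEB1, or 671, 671 and 618 CPM against 261, 250 and 261 CPM. The groups lay far apart, and the siZEB1 libraries were close to each other. EPAS1 averaged 653 ± 30.6 CPM in siNC and 257 ± 6.5 CPM in siZEB1 (SD, n = 3 each), which was 60.7% or 2.54-fold lower (log2 fold change -1.35, SE 0.055, edgeR adjusted p = 1.02e-11). Only 1.25% of all genes tested had a lower log2 fold change than EPAS1.

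HIF1A encodes HIF-1alpha, the subunit behind most of the acute transcriptional response to hypoxia, including that of glycolytic genes. Its gene (ENSG00000100644) lies on chr14:61695513-61748259, plus strand. It had 6318, 6110 and 4943 reads in siNC and 5235, 5339 and 5992 reads in siZEB1. Scaled, these were 297, 273 and 256 CPM against 277, 278 and 313 CPM, and the groups overlapped. The means were 275 ± 20.5 and 289 ± 20.6 CPM (SD, n = 3 each), and the log2 fold change of 0.071 (SE 0.067, edgeR adjusted p = 0.427) had a 95% interval from -0.070 to 0.21. The E-box shown above lies before the start of HIF1A. HIF1A-AS1, which runs on the opposite strand across 2.27% of the exonic bases of HIF1A, had 1, 10 and 1 reads in siNC and 8, 5 and 7 in siZEB1, few beside those of HIF1A.

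HIF3A encodes an alpha subunit whose splice forms include inhibitors of the other two. Its gene (ENSG00000124440) lies on chr19:46297046-46343433, plus strand. It had 0 reads in each siNC library and 0, 2 and 1 reads in siZEB1. A count of 0 over the siNC group allows up to 0.0477 CPM, and neither group rose above 3 reads, so no fold is given.

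The alpha subunits changed places. Per length of exon, in RPKM (the CPM divided by the exonic length in kilobases), EPAS1 was the highest of all the HIF genes in siNC at 89.5 ± 4.19, above HIF1A at 53.5 ± 3.98. In siZEB1 HIF1A was the highest at 56.2 ± 3.99, above EPAS1 at 35.2 ± 0.890, and in neither group did their libraries overlap. EPAS1 made up 61.4%, 63.4% and 63.0% of the summed alpha RPKM in the siNC libraries and 39.9%, 38.8% and 37.0% in siZEB1. The summed alpha RPKM was 143 ± 7.76 in siNC and 91.4 ± 4.52 in siZEB1. These levels rest on the union of annotated exons (7302 bases for EPAS1 and 5151 for HIF1A), and the transcripts that SW480 uses may be shorter.

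**Figure D2:**
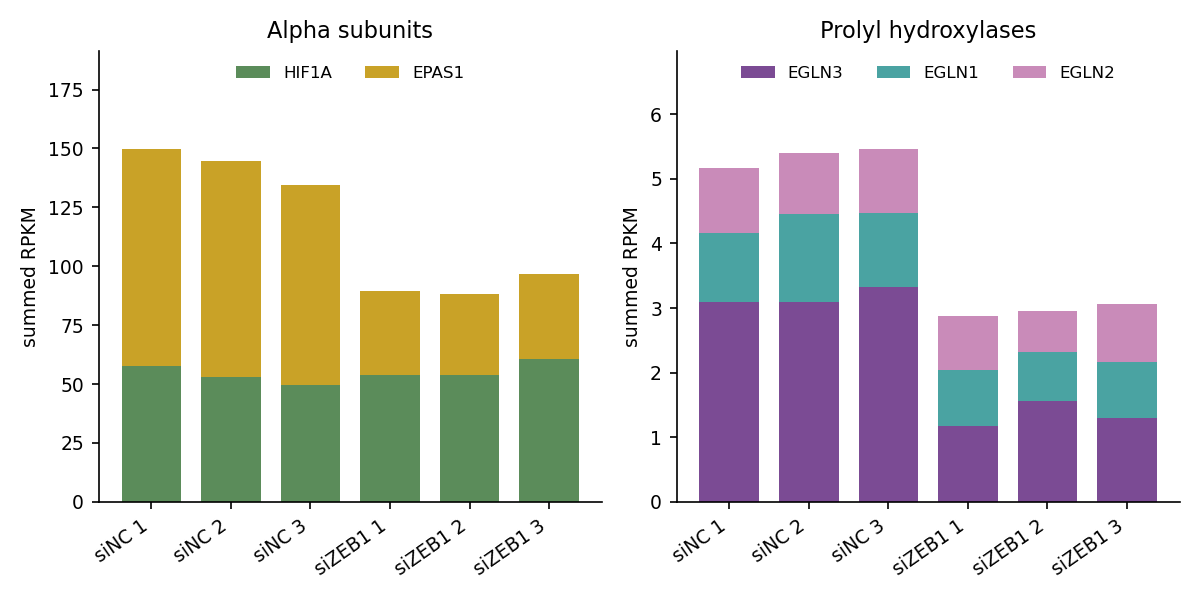
Summed RPKM of the alpha subunits (left) and of the EGLN hydroxylases (right) in each of the 6 libraries (x axis), with each gene as a stacked part. EPAS1 is the larger part of the alpha subunits in siNC and the smaller in siZEB1, and the EGLN sum goes from 5.34 to 2.96 with EGLN3 losing most.

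ARNT encodes HIF-1beta, the partner of every alpha subunit and also of the dioxin receptor AHR. Its gene (ENSG00000143437) lies on chr1:150809705-150876768, minus strand. It had 409, 495 and 355 reads in siNC and 274, 270 and 287 reads in siZEB1. The siNC libraries were at 19.2, 22.1 and 18.4 CPM, all above the siZEB1 libraries at 14.5, 14.0 and 15.0 CPM. ARNT fell 1.37-fold, from 19.9 ± 1.94 to 14.5 ± 0.477 CPM (SD, n = 3 each, log2 fold change -0.46, SE 0.095, edgeR adjusted p = 0.00097). Per length, ARNT was at 3.06 ± 0.297 RPKM in siNC and 2.23 ± 0.0732 RPKM in siZEB1, far below HIF1A in both. ARNT2, a related beta subunit best known from neurons (ENSG00000172379, chr15:80404350-80597937, plus strand), had 1, 7 and 3 reads in siNC and 5, 7 and 5 reads in siZEB1, or 0.172 ± 0.134 and 0.297 ± 0.0583 CPM, and was not tested.

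**Figure D3:**
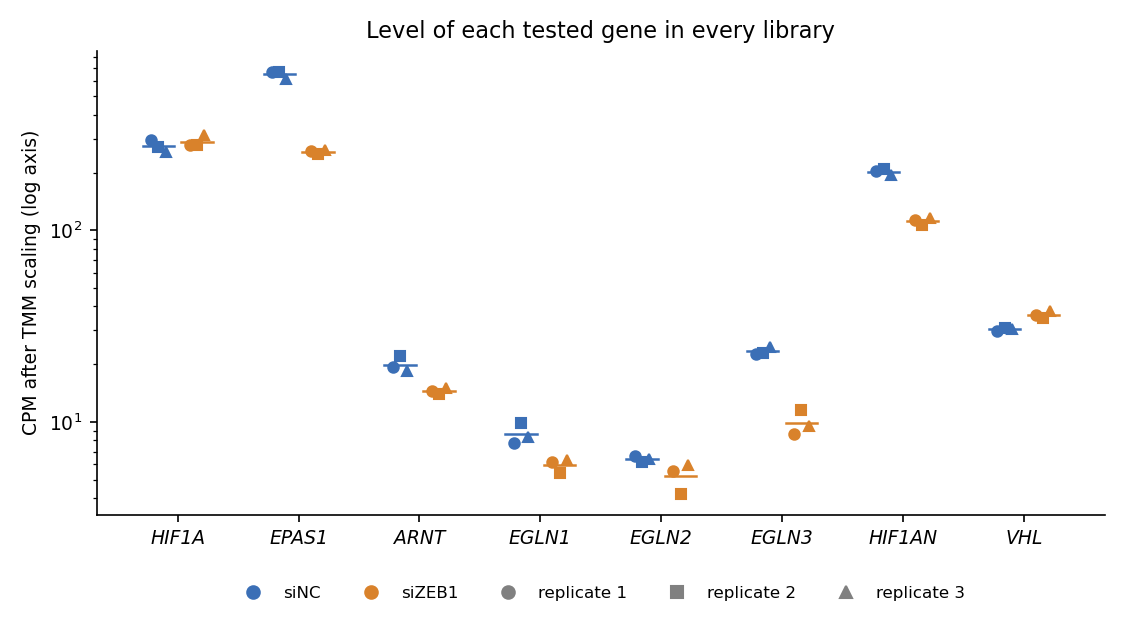
CPM of the 8 tested HIF genes in each library, on a log axis, with siNC and siZEB1 libraries as separate points and the mean as a line. EPAS1, HIF1AN, EGLN3, EGLN1, EGLN2 and ARNT sit lower in all 3 siZEB1 libraries, VHL sits higher, and the HIF1A points of both groups overlap.

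Of the prolyl hydroxylases, EGLN3 and EGLN1 fell and EGLN2 did not pass the test. EGLN3, or PHD3, is the family member whose RNA is most strongly induced by hypoxia in many cell types. Its gene (ENSG00000129521) lies on chr14:33924231-34462774, minus strand. It had 483, 511 and 472 reads in siNC and 164, 222 and 182 reads in siZEB1, or 22.7, 22.8 and 24.5 CPM against 8.69, 11.5 and 9.51 CPM. The siZEB1 libraries spread more than those of siNC, with replicate 2 highest, yet all lay far below. EGLN3 averaged 23.3 ± 0.993 CPM in siNC and 9.91 ± 1.47 CPM in siZEB1 (SD, n = 3 each), which was 57.5% or 2.35-fold lower (log2 fold change -1.23, SE 0.11, edgeR adjusted p = 9.22e-08).

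EGLN1, or PHD2, is the main oxygen sensor that sets HIF-1alpha levels in most cells. Its gene (ENSG00000135766) lies on chr1:231363751-231425044, minus strand. It had 165, 221 and 161 reads in siNC and 117, 104 and 121 reads in siZEB1. In CPM, siNC was at 7.76, 9.87 and 8.35 and siZEB1 at 6.20, 5.41 and 6.32, without overlap. EGLN1 fell 1.45-fold, from 8.66 ± 1.09 to 5.98 ± 0.495 CPM (SD, n = 3 each, log2 fold change -0.54, SE 0.13, edgeR adjusted p = 0.0035).

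EGLN2, or PHD1, is the family member that is largely insensitive to hypoxia at the RNA level. Its gene (ENSG00000269858) lies on chr19:40798996-40808433, plus strand. It had 141, 139 and 124 reads in siNC and 104, 81 and 114 reads in siZEB1, or 6.63, 6.21 and 6.43 CPM against 5.51, 4.21 and 5.96 CPM. The groups did not overlap, but the log2 fold change of -0.30 (SE 0.15) missed the threshold (edgeR adjusted p = 0.117), with a 95% interval from -0.61 to 0.011. It was -0.16 without siZEB1 replicate 2, the lowest library. The read-through gene RAB4B-EGLN2 shares 30.6% of the exonic bases of EGLN2 on the same strand, so these counts are uncertain where reads fell in shared exons.

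Per length, EGLN3 was the most abundant of the EGLN genes in siNC at 3.17 ± 0.135 RPKM, above EGLN1 at 1.19 ± 0.15 and EGLN2 at 0.977 ± 0.0323. The order was kept in siZEB1, at 1.35 ± 0.200, 0.823 ± 0.0682 and 0.795 ± 0.138 RPKM, where the libraries of EGLN1 and EGLN2 overlapped. EGLN3 made up 59.8%, 57.4% and 61.0% of the EGLN RPKM in siNC and 41.1%, 53.1% and 42.1% in siZEB1. The summed EGLN RPKM was 5.34 ± 0.156 in siNC and 2.96 ± 0.0989 in siZEB1 (SD, n = 3 each). The order, shares and sums rest on the union of annotated exons and on the EGLN2 counts called uncertain above.

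HIF1AN is the asparaginyl hydroxylase that limits coactivator binding. Its gene (ENSG00000166135) lies on chr10:100529072-100559998, plus strand. It had 4338, 4652 and 3739 reads in siNC and 2124, 2059 and 2213 reads in siZEB1, or 204, 208 and 194 CPM against 113, 107 and 116 CPM. The groups were well separated. HIF1AN fell by 44.7%, from 202 ± 7.13 to 112 ± 4.32 CPM (SD, n = 3 each, log2 fold change -0.85, SE 0.061, edgeR adjusted p = 9.89e-09). NDUFB8, which overlaps 2.33% of its exonic bases on the opposite strand, had between 1 and 14 reads a library.

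VHL was the gene that rose. It lies on chr3:10141008-10152220, plus strand (ENSG00000134086). It had 634, 693 and 587 reads in siNC and 681, 669 and 723 reads in siZEB1. After scaling, siNC was at 29.8, 30.9 and 30.5 CPM and siZEB1 at 36.1, 34.8 and 37.8 CPM, so that every siZEB1 library lay above every siNC library. The mean went from 30.4 ± 0.566 to 36.2 ± 1.5 CPM (SD, n = 3 each), 1.19-fold higher (log2 fold change 0.25, SE 0.074, edgeR adjusted p = 0.0117).

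Over all 10 genes, the order per length in siNC was EPAS1, HIF1A, HIF1AN (14.5 ± 0.511 RPKM), VHL (7.22 ± 0.134), EGLN3, ARNT, EGLN1, EGLN2, ARNT2 and HIF3A. Among the tested neighbours of this order, the libraries of EGLN3 (3.09 to 3.33 RPKM) and ARNT (2.83 to 3.39) overlapped and the others did not. In siZEB1 the order was HIF1A, EPAS1, VHL (8.60 ± 0.355), HIF1AN (8.01 ± 0.310), ARNT, EGLN3, EGLN1, EGLN2, ARNT2 and HIF3A. There VHL (8.26 to 8.97 RPKM) and HIF1AN (7.68 to 8.29) overlapped, as did EGLN1 and EGLN2. By their means per length, EPAS1 and HIF1A, HIF1AN and VHL, and EGLN3 and ARNT thus stood in the opposite order in siZEB1. For HIF1AN and VHL this rests on their annotated exonic lengths (13950 and 4213 bases). In CPM HIF1AN stayed above VHL, at 202 and 30.4 in siNC and 112 and 36.2 in siZEB1.

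The ratio of the reads of a pair of genes within a library does not depend on scaling between libraries, and 6 pairs were compared. EPAS1 to HIF1A was 2.26, 2.46 and 2.41 in siNC and 0.940, 0.899 and 0.834 in siZEB1, a log2 difference of -1.42, or 2.67-fold. EGLN3 to EGLN1 was 2.93, 2.31 and 2.93 in siNC and 1.40, 2.13 and 1.5 in siZEB1, a log2 difference of -0.71. HIF1AN to EGLN1 was 26.3, 21.0 and 23.2 in siNC and 18.2, 19.8 and 18.3 in siZEB1, a log2 difference of -0.32. In these 3 pairs every siZEB1 ratio lay below every siNC ratio. HIF1A to ARNT was 15.4, 12.3 and 13.9 in siNC and 19.1, 19.8 and 20.9 in siZEB1, a log2 difference of 0.52. VHL to HIF1A was 0.10, 0.113 and 0.119 in siNC and 0.130, 0.125 and 0.121 in siZEB1, a log2 difference of 0.18, or 0.11 without siNC replicate 1. EGLN2 to EGLN1 was 0.855, 0.629 and 0.770 in siNC and 0.889, 0.779 and 0.942 in siZEB1, a log2 difference of 0.22, with overlap between the groups, or 0.096 without siNC replicate 2. The exact permutation test, two-sided, gave p = 0.1 for 5 pairs, the smallest that 3 libraries against 3 allow, and p = 0.2 for EGLN2 to EGLN1 (Benjamini-Hochberg over the 6 pairs, 0.12 and 0.2). No pair could therefore pass 0.05 in this design, and the differences are given as measured.

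**Figure D4:**
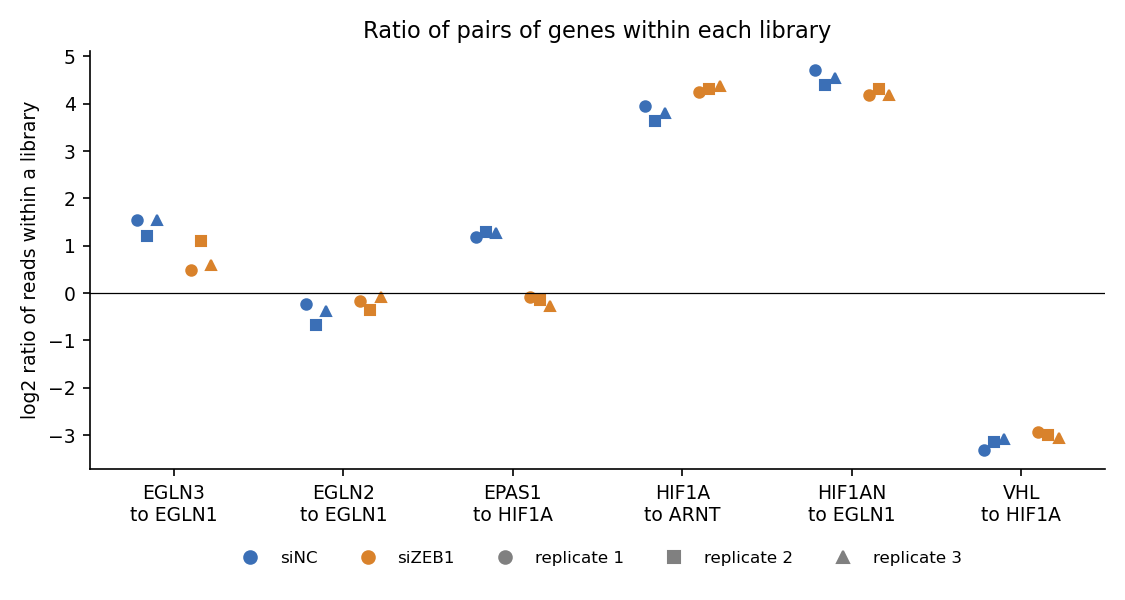
Log2 ratio of the reads of 6 pairs of genes within each library (y axis), with siNC and siZEB1 libraries as separate points. The groups do not overlap for any pair but EGLN2 to EGLN1, and the widest gap is that of EPAS1 to HIF1A.

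The genes whose pattern over the 6 libraries was most like that of EPAS1, EGLN3 or HIF1A were found by the root mean square difference of centred log2 CPM among the 9029 other genes with a mean of at least 10 CPM. For EPAS1 these were MRPS27 (0.022), FAM111B (0.023) and UHRF1 (0.042), with log2 fold changes of -1.37, -1.33 and -1.36. For EGLN3 they included PRXL2B (0.041) and KRT81 (0.062), with log2 fold changes of -1.23 and -1.25. For HIF1A they were DDX46 (0.013), PPAT (0.020) and ZNF644 (0.025). With 3 libraries a group and a large shared step between the groups, such likeness is a description of these libraries.

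The partners of VHL in its ubiquitin ligase, the cullin CUL2, the elongins ELOB and ELOC, the ring protein RBX1 and their ubiquitin and NEDD8 conjugating enzymes, made a list of 9 genes, all tested. Of these, 2 rose and none fell (19% and 21.2% of all genes), with a median log2 fold change of 0.083. Without siNC replicate 1 it was 1 higher and 2 lower, without siZEB1 replicate 2 it was 1 and 1, and without siNC replicate 2 it was 1 higher. UBE2D1, a ubiquitin conjugating enzyme, rose from 31.7 ± 2.75 to 49.8 ± 4.66 CPM (log2 fold change 0.65, edgeR adjusted p = 1.32e-05). NEDD8, the modifier that activates cullins, was 0.38 higher on the log2 scale (edgeR adjusted p = 0.0321), a call lost in 4 of 12 alternative settings. Without siZEB1 replicate 2 it was 0.23 higher (edgeR adjusted p = 0.212), and the call was also lost without siNC replicate 1 (0.0596) or siNC replicate 2 (0.126). CUL2 was at 71.1 ± 3.67 CPM in siNC and 73.8 ± 0.872 CPM in siZEB1 (edgeR adjusted p = 0.549).

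Of 9 HIF coactivators and their inhibitors, 1 rose and 2 fell (median log2 fold change -0.21), beside 19% and 21.2% of all genes. Without siNC replicate 3, 4 were lower. EP300, the acetyltransferase whose binding to HIF is blocked by HIF1AN, fell from 137 ± 12.8 to 90.9 ± 7.84 CPM (log2 fold change -0.59, edgeR adjusted p = 1.49e-05). Its paralog CREBBP was at 158 ± 9.79 and 173 ± 13.1 CPM (edgeR adjusted p = 0.136). CITED2, which competes with HIF-1alpha for EP300 and CREBBP, fell from 18.1 ± 0.716 to 14.6 ± 0.451 CPM (edgeR adjusted p = 0.00987). CDK8, a Mediator kinase that helps HIF-1alpha-driven elongation, rose from 74.6 ± 4.88 to 98.6 ± 6.37 CPM (edgeR adjusted p = 2.43e-04).

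Of 14 other regulators of the stability of HIF-1alpha or of the EGLN enzymes, 5 rose and 1 fell (median log2 fold change 0.044), beside 19% and 21.2% of all genes. SIAH2, a ubiquitin ligase that targets the EGLN3 protein, rose from 26.1 ± 1.17 to 43.4 ± 2.33 CPM (log2 fold change 0.73, edgeR adjusted p = 9.98e-07). GSK3B, a kinase that can mark HIF-1alpha for degradation without oxygen sensing, rose by 0.56 on the log2 scale (edgeR adjusted p = 2.53e-05). STUB1, a chaperone-linked ubiquitin ligase, fell by 0.42 (edgeR adjusted p = 0.00166). P4HTM, a membrane-bound prolyl hydroxylase of the endoplasmic reticulum, was 0.28 higher (edgeR adjusted p = 0.0459), a call lost in 6 of 12 alternative settings, among them those without siNC replicate 1 (0.17 higher, edgeR adjusted p = 0.21), siZEB1 replicate 1 (0.0842) or siZEB1 replicate 2 (0.193). The other two that rose were the chaperones HSP90AA1 and HSP90AB1, by 0.23 and 0.26.

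Of 11 other bHLH-PAS genes, the family of HIF1A and ARNT, 9 were listed and 8 tested, of which 2 rose and 3 fell (median log2 fold change -0.31), beside 19% and 21.2% of all genes. NPAS2, NPAS1 and ARNTL fell, with log2 fold changes of -1.13, -1.03 and -0.77 (edgeR adjusted p = 4.70e-06, 4.73e-06 and 1.04e-06). ARNTL, or BMAL1, the clock factor that pairs with CLOCK or NPAS2, went from 37.4 ± 2.28 to 22.0 ± 1.13 CPM. AHR, the dioxin receptor that pairs with ARNT, rose from 2.57 ± 0.601 to 4.61 ± 0.667 CPM (edgeR adjusted p = 0.00209). ARNTL2 rose by 0.24 (edgeR adjusted p = 0.00609).

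The EGLN enzymes and HIF1AN belong to the dioxygenases that use 2-oxoglutarate, of which 22 others made a list with 21 tested. In that list 7 rose and 7 fell, beside 19% and 21.2% of all genes, and the median log2 fold change was -0.0073. Without siZEB1 replicate 1, 4 were higher. KDM5B, a histone H3 lysine 4 demethylase, fell from 118 ± 8.49 to 50.6 ± 2.80 CPM (log2 fold change -1.23, edgeR adjusted p = 1.17e-09). TET2, ALKBH5 and TET1, which oxidise methylcytosine or remove methyl groups from RNA adenine, fell, with log2 fold changes of -0.96, -0.83 and -0.68 (edgeR adjusted p = 3.49e-05, 1.64e-08 and 6.46e-04). TET3, of the same family as TET1 and TET2, rose from 72.1 ± 6.91 to 114 ± 9.34 CPM (log2 fold change 0.65, edgeR adjusted p = 5.26e-06). Of 13 enzymes that make or use 2-oxoglutarate, succinate, fumarate or 2-hydroxyglutarate, 1 rose and 5 fell (median -0.079), beside 19% and 21.2% of all genes, and 2 were higher without siNC replicate 1 or without siNC replicate 3. D2HGDH, IDH2 and DLST fell, with log2 fold changes of -0.74, -0.57 and -0.41, and SDHB, a subunit of succinate dehydrogenase, rose by 0.34 (edgeR adjusted p = 0.00162, 0.00151, 1.5e-05 and 6.32e-04).

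Of 37 genes known to be induced through HIF in hypoxia, 36 were tested, and 8 rose and 13 fell (median log2 fold change -0.11), where 19% of all genes rose and 21.2% fell. KDM3A and P4HA1, which rose, are counted both here and among the dioxygenases. ADM, the peptide adrenomedullin, rose from 19.9 ± 2.11 to 38.2 ± 2.83 CPM and DDIT4, an inhibitor of mTORC1, from 10.9 ± 0.171 to 19.2 ± 1.51 CPM (edgeR adjusted p = 3.84e-07 and 3.30e-06). NDRG1, a stress-responsive gene, fell from 367 ± 1.44 to 214 ± 4.29 CPM and ANGPTL4, a lipase inhibitor, from 23.3 ± 3.60 to 13.8 ± 1.01 CPM (edgeR adjusted p = 5.72e-09 and 4.26e-05). What part the HIF genes had in these values was not tested.

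**Figure D5:**
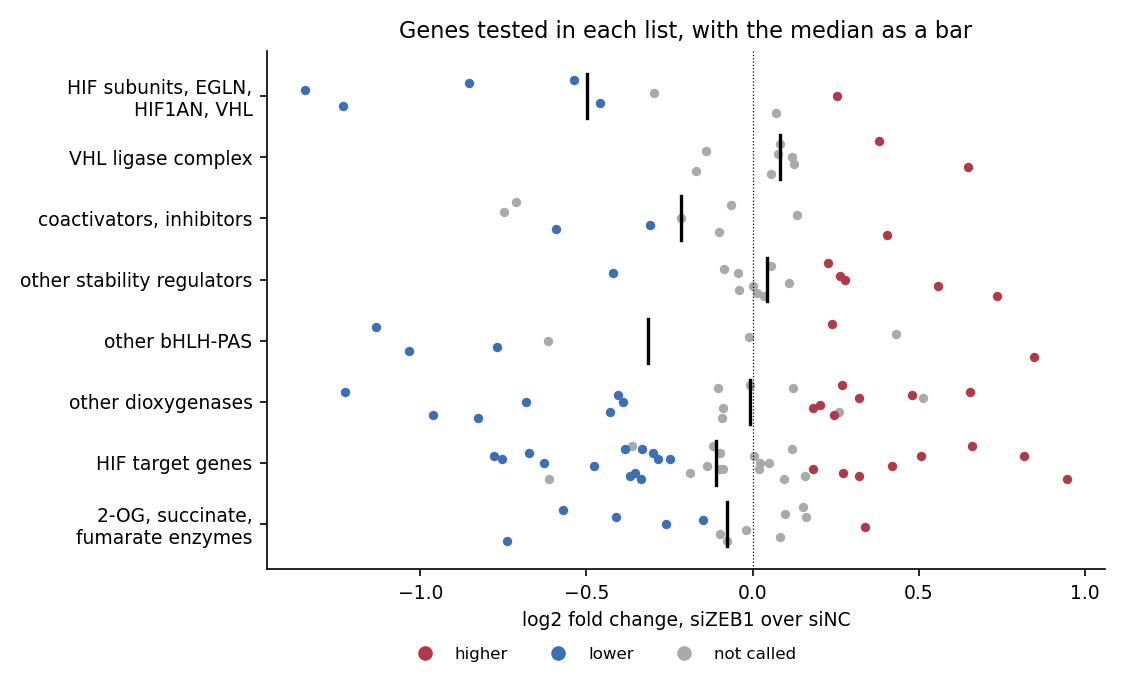
Log2 fold change of siZEB1 over siNC (x axis) for each tested gene of the HIF genes and of 7 related lists, with the median of each list as a bar. The HIF genes have the lowest median at -0.50, and the other medians lie between -0.31 and 0.083.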

How the data were processed

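RNA-seq of the 6 SW480 cultures was deposited as a table of whole-number read counts per gene and library. According to the submitters' processing notes, the authors used Trimmomatic, HISAT2, SAMtools and featureCounts with hg38. Their versions and order, the annotation and the strand setting are not given in the sources used here, so overlapping genes may share reads. The methods state an Illumina NextSeq sequencer and biological replicates. The deposited counts were not normalized. Identifiers were matched to GENCODE 29 (31059 of 32029), which gave coordinates and exonic lengths.

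Low genes were removed with filterByExpr (grouped by siRNA), libraries were scaled with TMM factors, and siZEB1 was compared with siNC by the quasi-likelihood test of edgeR 4.0.16 (R 4.3.3, limma 3.58.1). The test was two-sided and had no covariate, and p-values of all 14996 remaining genes were adjusted together (Benjamini-Hochberg). Calls were made at an adjusted p under 0.05. CPM and RPKM used the same library sizes. The script was tested on simulated data. Ratios within libraries were compared by the exact permutation test. The edgeR test accounts for counting error, and the common spread it fitted beyond that was a coefficient of biological variation of 6.58%. The permutation test fits no such spread.

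The HIF genes and the lists were chosen with earlier results of these data known. Genes were named by a rule: the 10 HIF genes, ZEB1, in each list the called genes of largest change, at most 4, that averaged 1 CPM or more, all called genes of a list with 5 or fewer, genes that overlap a HIF gene, and the 3 genes nearest in pattern to HIF1A, EPAS1 and EGLN3. A gene that meets this rule is not reported here. CUL2, CREBBP, TET3, HSP90AA1 and HSP90AB1, ENO1 and ALDOA were named after their values were seen. So were KDM3A and P4HA1, which stand in both the dioxygenase list and the HIF target list. Alternatives were DESeq2 (1.42.0), other scalings and filters, the replicate number as a block, leaving out each library, and the fold rule from the methods of the study, whose results text states another p threshold.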

Additional observations from a re-analysis of the deposited data

How the results depend on the processing

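Over 12 alternative settings for each gene, 7 of the 8 tested HIF genes kept their direction and their side of the threshold in all 12. The exception was VHL (log2 fold change 0.25, adjusted p = 0.0551 with the replicate number as a block), which left 0 HIF genes higher. Same-numbered libraries did not deviate together (correlations of deviations -0.33, -0.33 and -0.65, and 0 of 6 libraries correlated best with their own number). The highest correlation was 0.55, between siNC replicate 3 and siZEB1 replicate 2. The next was 0.54, between siNC replicate 1 and siZEB1 replicate 3. These values gave no sign that the numbers pair the cultures. They cannot exclude pairing, because deviations within a group of 3 libraries depend on each other. Over all genes the block gave 2289 higher and 2679 lower, beside 2849 and 3186, and for the VHL ligase partners 1 higher. Of 39 other named genes, 36 kept direction and call. NEDD8 was lost in 4 settings and P4HTM in 6, and PPAT ranged from -0.0021 to 0.12 when 1 library was left out (lowest without siZEB1 replicate 3). Leaving out 1 library each time gave 2293 to 2928 genes higher and 2617 to 3284 lower, with 1 HIF gene higher and 5 lower throughout. It also gave 1 to 3 VHL ligase partners higher and 0 to 2 lower, 2 to 4 coactivators lower, 4 to 7 dioxygenases higher and 1 to 2 of the 2-oxoglutarate enzymes higher. Scaling by total counts alone, or no filter, gave 1 VHL ligase partner lower. With a fold above 1.5 and an unadjusted p under 0.001, 678 genes were higher and 1004 lower (both the p and the size asked for changed). Under it 0 HIF genes were higher and 3 lower, 1 VHL ligase partner higher, 0 coactivators higher and 1 lower, 1 stability regulator higher and 0 lower, 1 bHLH-PAS gene higher, 1 dioxygenase higher and 4 lower, 3 HIF targets higher and 4 lower, and 0 of the 2-oxoglutarate enzymes higher and 1 lower. The count of EGLN2 together with RAB4B-EGLN2 was not run, as the files used here hold no row for the latter. EGLN1 and EGLN2, at 81 to 221 reads a library, have the widest intervals.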

Other observations

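Among the HIF target genes, ALDOA, a glycolytic aldolase, had 61, 59 and 52 reads in siNC and 58, 44 and 45 in siZEB1 (2.73 ± 0.121 CPM in siNC, SD, n = 3), while ENO1, an enzyme of the same pathway, was at 2820 ± 89.6 CPM. In GENCODE 29, 42.3% of the exonic bases of ALDOA are shared with AC093512.2 on the same strand. NDUFB8, a respiratory chain subunit beside HIF1AN, had 8, 4 and 4 reads in siNC and 1, 14 and 7 in siZEB1, and shares 33.8% of its exonic bases with AL133352.1 on the same strand. EGLN2 shares 30.6% of its exonic bases with RAB4B-EGLN2. The part of shared exons in these counts was not tested.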
